A study of Mus musculus with 6 samples.

Results

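Adrenergic receptors are the receptors for noradrenaline and adrenaline. The genes described here are Adra1a, Adra1b and Adra1d, which encode alpha-1 receptors, Adra2a, Adra2b and Adra2c, which encode alpha-2 receptors, and Adrb1, which encodes the beta-1 receptor. They were chosen by symbol, as 7 of the 24421 genes listed for each library, with earlier results of these data known. Expression was measured by RNA-seq in 3 control and 3 Sox9 KO libraries, each from the olfactory bulbs of 1 adult male mouse. Control mice were C57BL/6J animals, which the study's methods also name Sox9+/+, and Sox9 KO mice were Sox9fl/fl. Both groups had received AAV-GFAP-iCre-P2a-TurboRFP, a virus that makes Cre recombinase and a red fluorescent protein under the GFAP promoter, and TurboRFP-positive cells were sorted 4 weeks later. All mice thus carried Cre and differed by design in the floxed Sox9 allele. The study lists the floxed line under a strain name of its own, so that a difference in strain background cannot be told apart from the allele. The GFAP promoter is active in astrocytes, and the sorted cells went straight into lysis buffer, so that purity was not checked by a second sort and the study relied on cell type markers in the RNA-seq data for it.

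Noradrenaline reaches the olfactory bulb through dense fibers from the locus coeruleus, a brainstem nucleus that is active during arousal. Alpha-1 receptors couple to Gq, which activates phospholipase C and releases calcium from intracellular stores, and in astrocytes they are well known for calcium responses to noradrenaline. Alpha-2 receptors couple to Gi/o and lower cyclic AMP, while beta receptors couple to Gs and raise it. The comparison asks how the transcripts of these receptors differed between sorted cells with and without Sox9, a transcription factor of astrocytes.

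The values are normalized counts, that is, reads per gene divided by 1 size factor per library. The libraries held between 18242129 and 86906527 reads on genes, and a single read was worth between 0.395 and 1.58 normalized counts. Sox9 lay between 4921 and 6562 normalized counts in control and between 52.6 and 64.3 in KO libraries, so that the labels matched the targeted gene. The summed level of 9 astrocyte markers lay between 449211 and 499249 in control and between 31646 and 40364 in KO, and all 9 were lower in KO. Of 11 neuron markers 10 were lower, with sums of 19602 to 26741 in control and 2769 to 4939 in KO. All 8 microglia markers were higher, with sums of 116412 to 143385 in control and 412013 to 517575 in KO. The sums of 7 mural cell markers, for the cells that wrap blood vessels, were 1767 to 2076 and 388 to 744, and 3 of the 7 were lower. Oligodendrocyte precursor markers were lower in 4 of 4 genes, with sums of 4453 to 5387 in control and 384 to 605 in KO, as were 6 of 6 oligodendrocyte markers (35718 to 60060 and 15352 to 24644) and 5 of 6 olfactory ensheathing markers (14117 to 20440 and 5291 to 7353). Endothelial markers were lower in 3 and higher in 1 of 6 genes (1706 to 2744 and 1353 to 1776), border macrophage markers lower in 3 and higher in 2 of 5 (13097 to 19361 and 20812 to 23814) and fibroblast markers lower in 1 of 5 (1583 to 2260 and 642 to 1012). No gene of these lists was at 0 in a whole group, so that the control libraries, too, held transcripts of microglia and other cells besides those of astrocytes. In such bulk samples, fewer cells of a type and less RNA per cell cannot be told apart.

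All 7 receptor genes had a mean of 1 normalized count or more and so entered the test. In Sox9 KO 5 of them fell, Adra1a, Adra2a, Adra1b, Adra2b and Adra1d, and 1 rose, Adrb1, at an adjusted p of 0.05 and 1.5-fold. Adra2c did not pass the test. Among all 18413 genes tested, 28.8% were called lower and 22.2% were called higher by the same thresholds (5299 and 4090 genes). That split moved to 6597 and 2630 genes with libraries scaled to equal totals, and to 4100 and 5380 after quantile normalization, while the calls of the 7 receptor genes were the same in both. The median log2 fold change of the 7 genes was −3.03, and that of all tested genes was −0.07. For the same 6 genes the KO libraries did not overlap the controls, which also held for 34.7% of all tested genes in the lower and 32.4% in the higher direction. Fold changes are KO over control on the scale of log2(normalized count + 1), which understates the change of genes with few reads. Adjusted p-values are from limma with Benjamini-Hochberg adjustment over all genes tested. With 3 against 3 libraries, no exact two-sided permutation p under 0.10 can arise for any one gene.

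**Figure D1:**
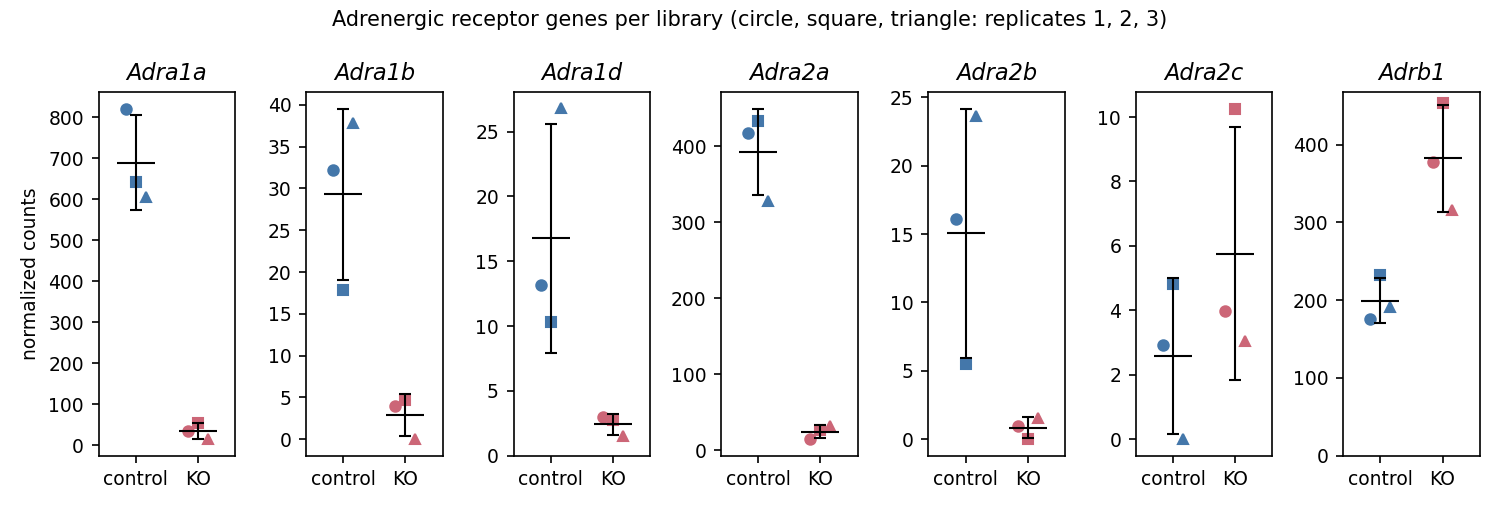
Normalized counts (y axis, linear, with a scale of its own for each gene) of the 7 adrenergic receptor genes in control (blue) and Sox9 KO (red) libraries, with each point a library and the bars the mean ± SD of 3 libraries. The KO points lie below all control points in 5 genes and above them in Adrb1, and the groups overlap in Adra2c.

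Of the alpha-1 receptors, Adra1a had the most reads. It encodes the alpha-1A receptor and spans positions 66635251 to 66771168 of chromosome 14 (mm10, GENCODE), on the plus strand. Adra1a had 821, 641 and 605 normalized counts in control libraries 1 to 3 against 34.7, 54.1 and 15.2 in KO libraries 1 to 3. Even the highest KO library lay far below the lowest control, and KO replicate 3 was the lowest of all. Controls averaged 689 ± 116 and KO libraries 34.7 ± 19.4 (SD, n = 3 each), a ratio of 19.9. The log2 fold change was −4.43 (standard error, SE, 0.39, limma adjusted p = 3.6e-06), and only 1.17% of all tested genes had a lower one. Between the KO libraries Adra1a varied more than between controls, with a coefficient of variation of 56.1% against 16.8%.

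Adra1b encodes the alpha-1B receptor and lies on chromosome 11, from 43774606 to 43901210 on the minus strand. Few reads stood behind it, with 22, 26 and 24 per control library against 4, 12 and 0 per KO library. These correspond to 32.1, 17.9 and 37.8 normalized counts in control and to 3.97, 4.74 and 0 in KO. A count of 0 in KO replicate 3 allows up to 4.56 normalized counts, which is the worth of 3 reads there, and this level is that of the other KO libraries. The log2 fold change was −3.25 (SE 0.72, limma adjusted p = 0.0028), and without KO replicate 3 it was −2.44. Adra1d encodes the alpha-1D receptor and lies on chromosome 2, from 131545850 to 131562283 on the minus strand. It stood at 13.2, 10.3 and 26.8 normalized counts in control and at 2.98, 2.76 and 1.52 in KO, from 41 reads in the controls together and 11 in the KO libraries together. The controls were spread, with replicate 3 above the others, and still lay above every KO library (log2 fold change −2.29, SE 0.58, limma adjusted p = 0.0057). An exon of Adra1d overlaps a gene on the opposite strand, Gm14285, and without a stated strand setting for the counting, reads of the pair cannot be told apart.

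Of the alpha-2 receptors, Adra2a stood out in level. It encodes the alpha-2A receptor and lies on chromosome 19, from 54044151 to 54048982 on the plus strand. Adra2a stood at 418, 433 and 328 normalized counts among controls against 14.9, 27.2 and 31.9 among KO libraries, so that the lowest control was still far above the highest KO library. The mean fell from 393 ± 56.8 to 24.7 ± 8.79 (SD, n = 3 each), a ratio of 15.9. Its log2 fold change of −3.99 (SE 0.31, limma adjusted p = 1.6e-06) was close to that of Adra1a. The 95% intervals of these changes, −4.68 to −3.30 for Adra2a and −5.29 to −3.57 for Adra1a, overlapped widely, and the difference between them was not tested.

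Adra2b encodes the alpha-2B receptor and lies on chromosome 2, from 127363208 to 127367221 on the plus strand. Control libraries held 11, 8 and 15 of its reads, and KO libraries 1, 0 and 1, or 16.1, 5.51 and 23.6 against 0.993, 0 and 1.52 normalized counts. The transcript was thus near the limit of detection in every KO library, where the 0 in KO replicate 2 allows up to 1.18 normalized counts. From the summed reads the control level was 25.8 times that of KO, with an exact 95% counting interval of 6.60 to 221 that covers counting error only. The log2 fold change was −3.03 (SE 0.71, limma adjusted p = 0.0039). Adra2c, the gene of the alpha-2C receptor on chromosome 5 from 35278319 to 35281763, was barely detected in either group. It had 2, 7 and 0 reads in control and 4, 26 and 2 in KO, or 2.92, 4.82 and 0 against 3.97, 10.3 and 3.04 normalized counts. The groups overlapped, and most of its reads came from KO replicate 2, the deepest library. Its log2 fold change of 1.10 had a 95% interval from −0.70 to 2.91 (limma adjusted p = 0.26), so that its direction could not be told at this depth.

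Adrb1, the gene of the beta-1 receptor, was the receptor that rose. It lies on chromosome 19, from 56722199 to 56733113 on the plus strand. Adrb1 stood at 175, 232 and 191 normalized counts in control and at 378, 454 and 316 in KO, and the lowest KO library was above the highest control. Like the alpha-2 receptor genes, its longest transcript is a single exon. The mean went from 199 ± 29.2 to 383 ± 68.9 (SD, n = 3 each), 1.92 times the control level. The log2 fold change was 0.93 (SE 0.19, limma adjusted p = 0.0016), and 82.2% of all tested genes had a lower one. With libraries scaled to equal totals it was 0.61 and after quantile normalization 1.42, and it passed the thresholds in both.

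**Figure D2:**
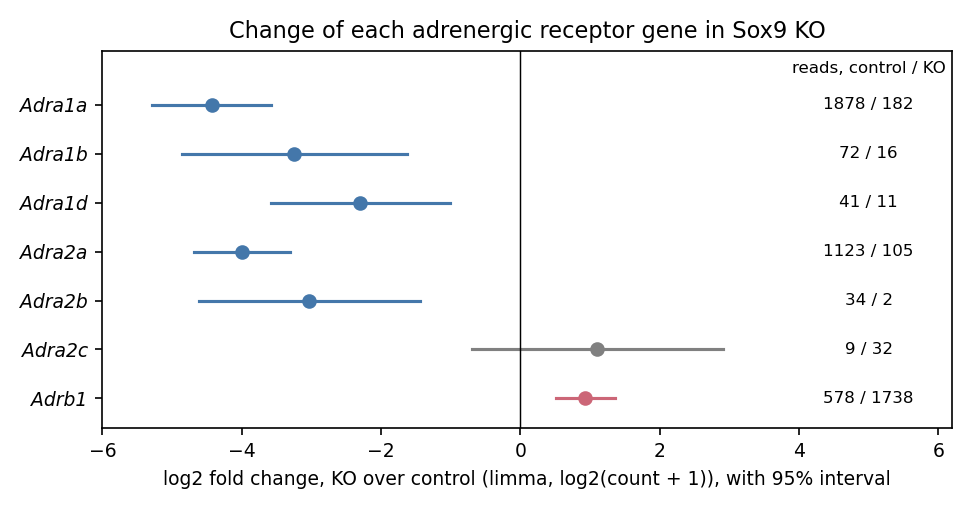
Log2 fold change of Sox9 KO over control (x axis) for each adrenergic receptor gene, with its 95% interval from limma and, on the right, the summed reads of the 3 control and the 3 KO libraries. Intervals are widest for Adra2c, Adra1b and Adra2b, with at most 72 reads in a group, and narrowest for Adrb1, where control libraries held 578 and KO libraries 1738 reads.

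Windows of 250 bases before the transcript start are shown for a receptor that rose, Adrb1, and for a pair that fell, Adra1b and Adra2b, so that the sequences upstream of genes that moved in opposite directions can be set side by side. They are RefSeq sequences of build GRCm38.p6, the assembly of mm10, given 5′ to 3′ on the strand of the gene. Capitals mark any match to ACAAAG or ACAATG, which are core motifs of Sox factors, on either strand (CTTTGT or CATTGT on the other). Adrb1 is at chr19:56721867-56722116 on the plus strand, Adra1b at chr11:43901238-43901487 on the minus strand and Adra2b at chr2:127362929-127363178 on the plus strand.
Adrb1: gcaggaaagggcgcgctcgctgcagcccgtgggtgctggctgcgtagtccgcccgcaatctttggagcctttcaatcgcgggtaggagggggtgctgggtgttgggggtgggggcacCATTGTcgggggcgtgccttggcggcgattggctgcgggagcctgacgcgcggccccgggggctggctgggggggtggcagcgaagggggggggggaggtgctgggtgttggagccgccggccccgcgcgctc
Adra1b: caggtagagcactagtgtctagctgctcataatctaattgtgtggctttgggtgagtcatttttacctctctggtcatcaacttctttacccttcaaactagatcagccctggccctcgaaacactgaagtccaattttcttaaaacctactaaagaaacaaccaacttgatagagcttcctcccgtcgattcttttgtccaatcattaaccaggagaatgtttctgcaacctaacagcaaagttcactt
Adra2b: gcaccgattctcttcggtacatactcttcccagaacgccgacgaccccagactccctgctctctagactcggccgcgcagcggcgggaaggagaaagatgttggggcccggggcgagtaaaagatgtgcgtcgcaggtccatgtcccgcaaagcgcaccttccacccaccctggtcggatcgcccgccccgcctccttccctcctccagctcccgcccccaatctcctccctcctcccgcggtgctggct
The Adrb1 window held 1 match, a CATTGT that begins 133 bases before the start. No match was found in the windows of Adra1b, Adra2b, Adra2a and Adra2c, nor in a second window of Adra1b. Of 32851 windows of this length in the table, 16.5% held ACAAAG, 10.7% held ACAATG and 25.2% held either of them. The windows of Adra2a and Adra2c overlap exons of these genes in GENCODE and are not shown, and Adra1a and Adra1d have no entry in the table. The windows differed in base composition, with a GC content of 74.0% for Adrb1, 66.0% for Adra2b and 41.6% for the Adra1b window shown, against 72.8% for its second window, 67.6% for Adra2a, 53.6% for Adra2c and a median of 52.4% over all windows.

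Levels can be compared between genes only roughly, after division by transcript length. Adra1a, for one, has 6 annotated transcripts, and the annotation used for the counting is not named. Per kilobase of the longest GENCODE transcript, the order in control libraries was Adra1a (161 ± 27.0 normalized counts per kb), Adra2a (81.3 ± 11.8), Adrb1 (67.5 ± 9.91), Adra1d (8.82 ± 4.64), Adra1b (8.79 ± 3.08), Adra2b (3.76 ± 2.27) and Adra2c (0.749 ± 0.704, SD, n = 3 each). The range of Adra1a was separate from that of Adra2a, and the range of Adrb1 from that of Adra1d. Adra2a was above Adrb1 in 3 of 3 controls although their ranges overlapped, and the ranges of neighbours among the last 4 genes also overlapped. In KO libraries the order began with Adrb1 at 129.6 ± 23.3 normalized counts per kb, far ahead of Adra1a (8.10 ± 4.54) and Adra2a (5.11 ± 1.82), while Adra2c, Adra1d, Adra1b and Adra2b stood between 1.67 and 0.209. There the ranges of Adra1a and Adra2a overlapped. The sum over the 7 genes per kb dropped from 332 ± 27.0 among controls to 147 ± 29.4 among KO libraries (SD, n = 3 each), with every KO library below every control, a ratio of 2.26.

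The make-up of the receptor transcripts therefore differed between the groups. Alpha-1 receptor genes made up 58.0%, 48.4% and 54.7% of the length-scaled sum in the control libraries, against 7.58%, 8.72% and 3.65% in the KO libraries. Alpha-2 receptor genes took 25.4%, 27.9% and 24.2% in control and 3.12%, 4.85% and 6.59% in KO. Adrb1 alone took 16.5%, 23.7% and 21.2% in control and 89.3%, 86.4% and 89.8% in KO. Adrb1 had a mean share of 20.5% ± 3.63 among controls against 88.5% ± 1.80 among KO libraries (SD, n = 3 each), a difference of 68.0 percentage points (exact two-sided permutation test, p = 0.10, the smallest that 3 against 3 libraries allow). The groups did not overlap in the share of any of the 3 classes. Shares are of these 7 genes only, so that a fall of the others raises that of Adrb1 even at an equal level.

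**Figure D3:**
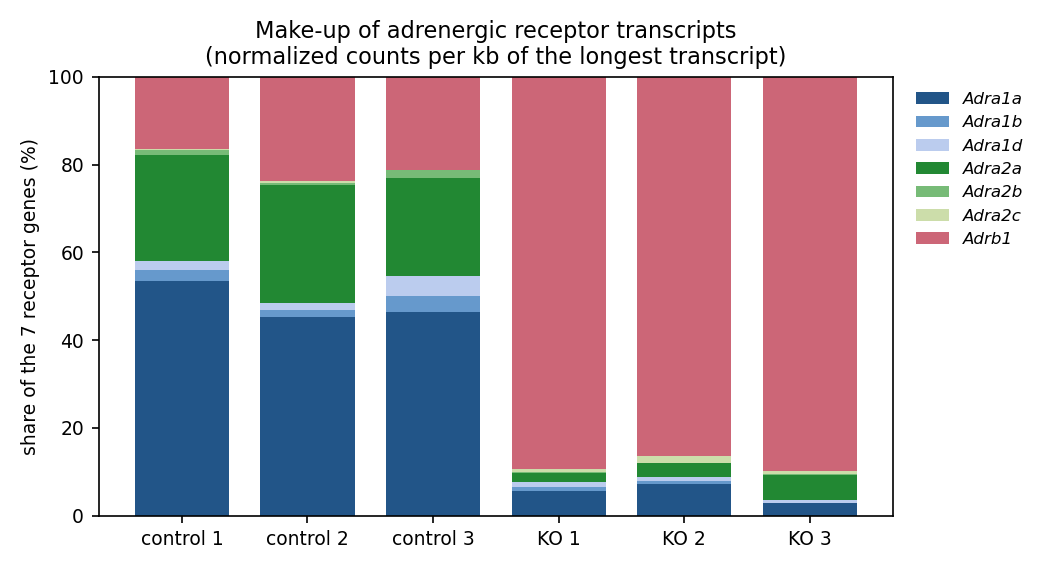
Share of each adrenergic receptor gene (y axis, percent) in the sum of the 7 genes, from normalized counts per kb of the longest transcript, with 1 bar for each of the 6 libraries. Adra1a and Adra2a (dark blue and dark green) fill most of the control bars, and Adrb1 (red) takes 86.4% to 89.8% of the KO bars.

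Each receptor was also set against the summed markers of a cell type in the same library, as a difference of log2 values. Relative to astrocyte markers, Adra1a and Adra2a had log2 changes of −0.68 and −0.25, and the groups overlapped in both (exact two-sided permutation tests, p = 0.30 and 0.60). Adra1b and Adra2b overlapped as well, with changes of 0.50 and 0.72, while Adra1d was higher relative to these markers in every KO library, by 1.45. Relative to neuron markers, Adra1a and Adra2a were lower in every KO library, with log2 changes of −1.71 and −1.27, and relative to mural markers of −2.50 and −2.06 (p = 0.10 in each exact permutation test, the smallest possible). Adrb1 was higher in every KO library relative to astrocyte, neuron and mural markers, with log2 changes of 4.68, 3.65 and 2.87. Relative to microglia markers it was lower in every KO library, with a log2 change of −0.99, as those markers stood at 3.79 times the control sum and Adrb1 at 1.92 times the control mean. All alpha receptors but Adra2c were lower relative to microglia markers in every KO library. Adra2c relative to microglia markers had overlapping groups and a change of −0.82, from its few reads, and was higher in every KO library relative to the other 3 summed lists. The mural ratios depended on how the list was summarised. With the mean of log2 values over the mural list in place of the sum, the log2 changes were −3.34 for Adra1a, −2.16 for Adra1b, −1.20 for Adra1d, −2.90 for Adra2a, −1.94 for Adra2b and 2.02 for Adrb1, with groups apart for all 6 (p = 0.10 in each exact permutation test), while the value for Adra2c was 2.19 and its groups overlapped. The groups did not overlap in 17 of the 28 ratios to summed markers, and the smallest p was 0.16 after Benjamini-Hochberg adjustment of the exact permutation tests over them. The part that a different mix of cells had in the receptor changes was not tested.

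**Figure D4:**
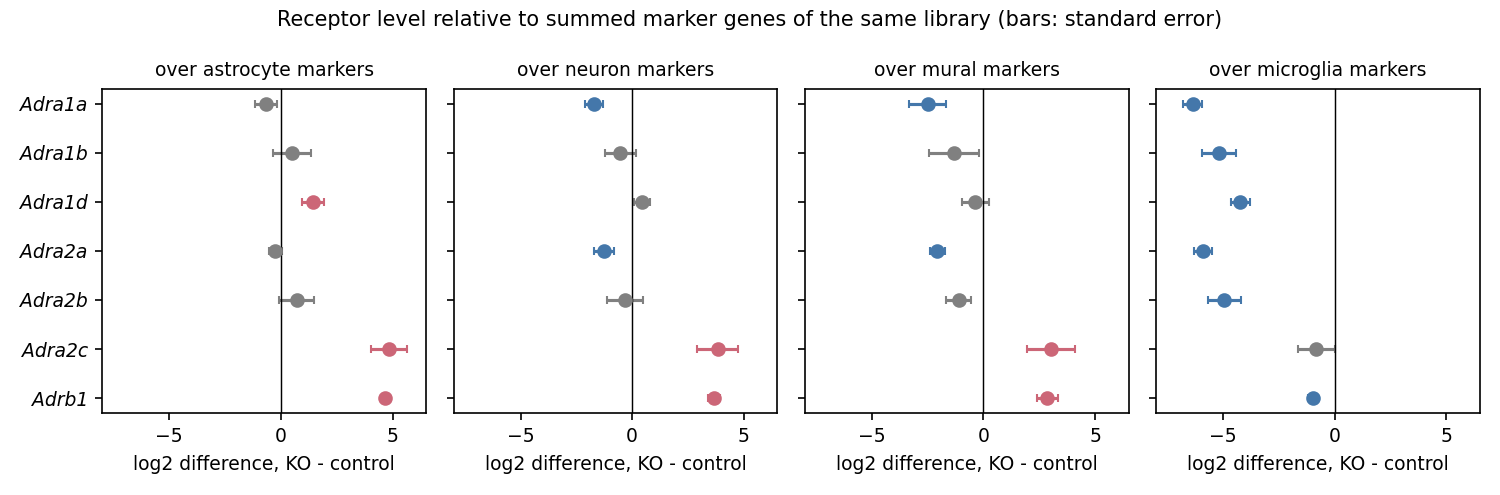
Difference between Sox9 KO and control (x axis, log2) in the level of each receptor gene relative to the summed astrocyte, neuron, mural or microglia markers of the same library. Points are differences of 3-library means, bars are standard errors, and red or blue marks genes in which every KO library was above or below every control. Adra1a and Adra2a are grey in the astrocyte panel, where the groups overlap, and Adrb1 is red in 3 panels and blue in the microglia panel.

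For each receptor, the 3 tested genes with the most similar pattern over the 6 libraries were found, with adrenergic receptor genes left out of the search. Similarity was the root mean square difference of log2 values, each gene centred on its own mean. Adra2a was nearest to Tmem35, Gpc5 and Tmem246, at differences of 0.11, 0.15 and 0.15. Gpc5, a glypican that carries heparan sulfate, went from 2996 ± 333 to 191 ± 59.9 normalized counts (SD, n = 3 each). Adra1a was nearest to the cell adhesion gene Bcam and to Nphs1 and Slc26a5, at 0.23 in each. Adrb1 was nearest to Barhl1, Susd1 and 9130024F11Rik, at 0.04, 0.07 and 0.08, and of these only Susd1 had a level like its own, 229 ± 37.6 in control and 442 ± 45.4 in KO. Adra1d was nearest to Gpr50, Actn2 and Efna4, at 0.14, 0.17 and 0.18. The patterns of Adra1b, Adra2b and Adra2c had no match closer than 0.35, 0.29 and 0.34, and their nearest genes were Pde4c, Slc35d3 and Kcng2. Among the receptors themselves, the closest pair, Adra1d and Adra2b, stood at 0.73.

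The genes that carry the receptors' signals and those for the synthesis and clearance of noradrenaline were taken as 8 lists. These held 107 genes, of which 106 were tested. In Sox9 KO 48 of these fell and 21 rose, or 45.3% and 19.8%, beside 28.8% and 22.2% of all tested genes. In the Gq arm, which alpha-1 receptors use, 6 of 16 genes fell and 5 rose, or 37.5% and 31.25%. Members of one family moved both ways. Plcb1, a phospholipase C that Gq activates, fell from 1526 ± 283 to 226 ± 72.8 normalized counts (SD, n = 3 each), which is −2.78 in log2 fold change (at a limma adjusted p of 2.6e-06), while its relative Plcb2 rose from 823 ± 110 to 4248 ± 459 (log2 fold change of 2.37 at a limma adjusted p of 1.0e-07). Gnaq, the gene of the Gq alpha subunit, stood at 5706 ± 798 in control and 8469 ± 336 in KO, a log2 fold change of 0.58 that just missed 1.5-fold. Gnaq was called higher in 5 of 15 alternatives. The protein kinase C gene Prkcb rose from 5909 ± 167 to 17772 ± 1548, in KO libraries in which the microglia markers were higher too. Of the 5 alpha subunits of the Gi/o class, which alpha-2 receptors use, 3 fell, Gnao1, Gnai1 and Gnaz, and none rose. Gnao1 had the lowest log2 fold change among them, from 15059 ± 716 to 902 ± 109 normalized counts (SD, n = 3 each), which is −4.07 in log2 fold change (at a limma adjusted p of 3.8e-09), near that of Adra2a. Gnai2, with 8227 ± 274 and 9433 ± 801, did not pass the test. Among 15 beta and gamma subunits 7 fell and 4 rose, with Gng4 (log2 fold change −3.36) and Gng2 (1.53) at the ends.

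In the Gs and cyclic AMP arm, which beta receptors use, 7 of 17 genes fell and 2 rose. Gnas, the gene of the Gs alpha subunit that couples Adrb1 to cyclic AMP, stood at 20079 ± 263 and 17163 ± 308 normalized counts (SD, n = 3 each), less than 1.5-fold apart (−0.23 on the log2 scale). Of the adenylyl cyclases, which make cyclic AMP, Adcy2 fell from 1358 ± 171 to 88.7 ± 31.3 and Adcy4 rose from 51.0 ± 7.70 to 253 ± 90.7, with log2 fold changes of −3.97 and 2.23. Phosphodiesterases, which break down cyclic nucleotides, fell in 7 of 15 genes and rose in 2, among them Pde3b, from 5249 ± 376 to 17181 ± 1018. Of 7 receptor kinases and arrestins, which switch off active receptors, 2 were lower and 2 higher. That is 28.6% each way, near the 28.8% and 22.2% of all tested genes. Adrbk1, a kinase named for the beta receptor, rose by 1.13 on the log2 scale, and its relative Adrbk2 fell by 0.75. The other kinase called lower, Grk4, had an adjusted p of 0.049 from limma and lost its call in 9 of 15 alternatives, with its sign turned by quantile normalization. Of 18 RGS genes, whose proteins shorten G protein signals, 10 fell and 5 rose, from Rgs20 (log2 fold change −4.50) to Rgs1 (2.97).

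**Figure D5:**
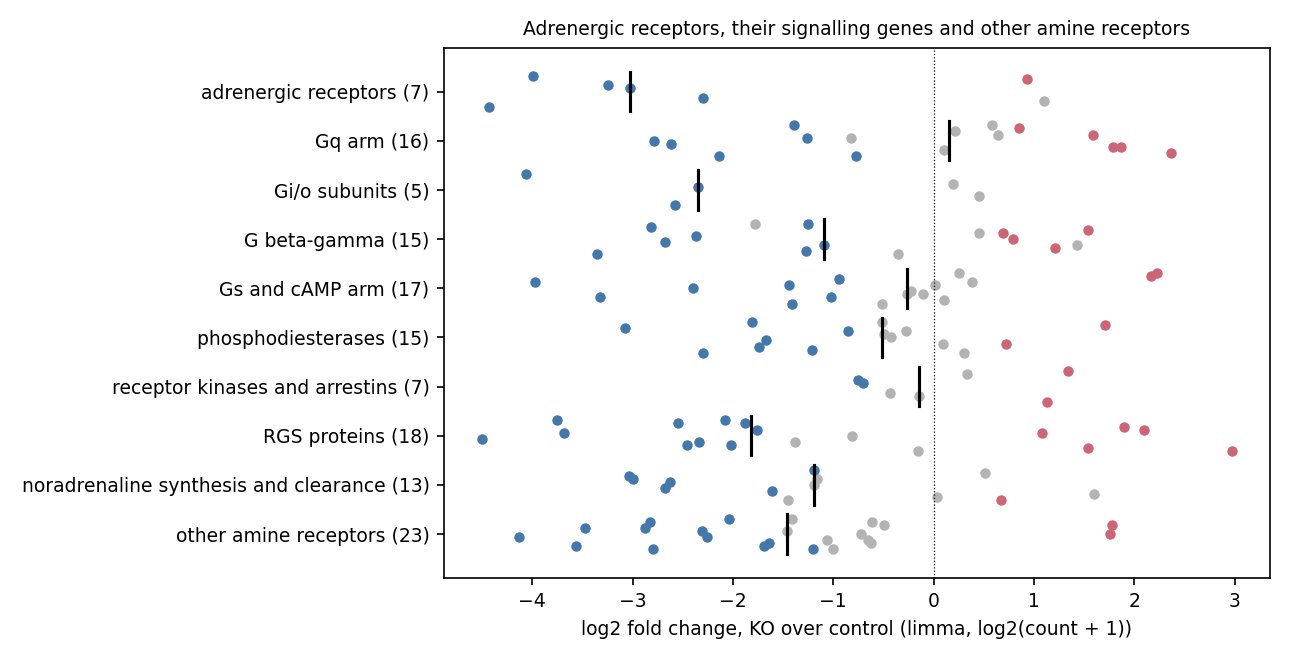
Log2 fold change of Sox9 KO over control (x axis) of the 7 adrenergic receptor genes, of 8 lists of signalling and noradrenaline genes and of other amine receptors, with the number of tested genes in brackets. Each point is a gene, blue where called lower, red where called higher and grey otherwise, the vertical position within a list has no meaning, and black lines are medians, of which that of the Gq arm (0.16) turned negative with equal totals and that of the receptor kinases and arrestins (−0.14) turned positive after quantile normalization.

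Of 13 tested genes for the synthesis and clearance of noradrenaline, the receptors' ligand, 6 fell and 1 rose. These are 46.2% and 7.69%, beside 28.8% and 22.2% of all tested genes. Maoa, a monoamine oxidase that breaks down noradrenaline, fell from 917 ± 65.2 to 399.7 ± 23.8 normalized counts, and the low-affinity carrier Slc22a3 went from 11.5 ± 1.47 to 0.638 ± 0.788 (SD, n = 3 each). Slc22a3 had only 9, 15 and 7 reads in control and 0, 1 and 1 in KO libraries, near the limit of detection. Receptors for other amines were set beside these genes. Of 23 tested receptor genes for dopamine, serotonin, histamine and acetylcholine, 12 fell and 2 rose, around a median of −1.46 on the log2 scale. Their shares were 52.2% and 8.70%, against the same 28.8% and 22.2% of all tested genes. With quantile normalization 7 fell and 2 rose, beside 4100 and 5380 of all 18413 tested genes. The histamine receptors Hrh1 and Hrh2 moved in opposite directions. Of the other histamine receptors, Hrh3 was called lower with overlapping groups, a call lost in 8 of 15 alternatives, and Hrh4 was not called. Hrh1, a Gq-coupled receptor, went from 294 ± 123 to 22.8 ± 5.97 normalized counts (SD, n = 3 each), which is −3.56 in log2 fold change (at a limma adjusted p of 1.2e-05), and the Gs-coupled Hrh2 rose from 113 ± 3.39 to 399 ± 104 (log2 fold change of 1.77 at a limma adjusted p of 4.4e-05). Receptors of one coupling moved both ways, however, since the Gs-coupled serotonin receptor Htr6 had the lowest log2 fold change of the list, −4.13, and the Gq-coupled Htr2c was the second gene that rose, from 8.34 ± 1.08 to 31.2 ± 9.06.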

How the data were processed

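RNA of TurboRFP-positive cells from 3 control and 3 Sox9 KO mice was made into libraries with the Trio RNA-Seq System from 10 ng each. The authors aligned reads with STAR 2.5.0a to mm10 and normalized them with DESeq2 1.20.0. Neither the gene annotation nor a strand setting is named in these sources. The deposited values are named RPM, yet each is a signal equal to whole reads divided by 1 size factor per library. All came out whole within 0.01 read, so that reads per gene were recovered. Depth was 18242129 to 86906527 reads on genes, and intervals and floors of 3 reads cover counting error only.

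Log2(value + 1) was fitted with limma 3.58.1 in R 4.3.3 over 18413 genes with a mean of at least 1, leaving out 6008, without a replicate term and with Benjamini-Hochberg adjustment. A gene was called at an adjusted p under 0.05 and 1.5-fold. Alternatives were pseudocounts of 0.5 and 5, no filter, a mean of at least 10, equal totals without Rn45s, quantile normalization, a replicate block, edgeR 4.0.16 and DESeq2 1.42.0 on the recovered reads, and leaving out each library. Same-numbered libraries did not deviate together. Levels per kb used the longest GENCODE transcript.

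The members, lists and markers were chosen with earlier results of these data known. Named besides the members were Sox9, the 3 genes with the nearest pattern to each member and, in each list, genes among the 2 with the highest mean and the called genes with the largest rise and fall. Gnai1, Gnaz, Adrbk1, Grk4, Hrh3, Hrh4 and Htr2c were named after their values were seen. Other adrenergic receptor genes and some listed genes are not reported here.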

Additional observations from a re-analysis of the deposited data

How the results depend on the processing

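The direction and the side of the threshold of the 7 log2 fold changes were the same under every alternative in which the gene was tested, with ranges of −4.83 to −3.94 for Adra1a, −3.70 to −2.13 for Adra1b, −2.71 to −1.48 for Adra1d, −4.31 to −3.35 for Adra2a, −4.62 to −1.67 for Adra2b, 0.35 to 1.70 for Adra2c and 0.61 to 1.42 for Adrb1. Adra1d, Adra2b and Adra2c fell under the filter of a mean of at least 10, which left 3 receptor genes called lower. With equal totals 6597 of all tested genes were called lower and 2630 higher, and with quantile normalization 4100 and 5380. The median log2 fold change of all genes moved by −0.31 and 0.27 in these settings. edgeR called 5000 lower and 4340 higher, and DESeq2 5100 and 3994. The replicate block gave 5227 and 4048 and changed no call of a receptor gene, and the libraries share only a number. Without 1 library at a time the change of the Adra1b ratio to neuron markers ran from −0.996 to 0.13, that of the Adra2b ratio to neuron markers from −0.76 to 0.35 and that of the Adra1d ratio to mural markers from −0.63 to 0.13, all from groups that overlap and with the sign turned without KO replicate 3, or KO replicate 2 for Adra2b. These genes had 2 to 16 reads in all KO libraries together, so that depth limits them, and a pseudocount of 5 drew their fold changes toward 0. Receptor shares kept their direction without division by length and without any 1 library, the alternatives run for them.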
